A study of Mus musculus with 6 samples.

Results

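The barcodes described here carried transcripts of at least 3 of 5 monocyte marker genes, and there were 132 of them among 60282 deposited cell barcodes, or among 42942 that passed quality limits. They came from single-cell RNA libraries of injured mouse quadriceps. A barcode was taken when it had at least 500 genes and at most 15% mitochondrial UMIs (unique molecular identifiers, one for each captured transcript), at least 2 of the 6 myeloid genes Csf1r, Cd68, Fcgr1, Lyz2, Adgre1 and Ptprc, and at least 3 of the 5 markers Ly6c2, Ccr2, Plac8, Chil3 and Vcan. It also had at most 1 of the 4 macrophage genes Mrc1, Cbr2, Gpnmb and Trem2, less than 2% of UMIs from the 4 MHC class II genes H2-Aa, H2-Ab1, H2-Eb1 and Cd74, and no UMI of Flt3 (a dendritic cell receptor) or Csf3r (a neutrophil receptor). The working label was infiltrating monocyte-like cells. The marker check below, with thresholds chosen after the values were seen, found markers of other cell types in most of the barcodes. They are therefore called monocyte-marker barcodes throughout, and nothing measured here shows where a cell came from.

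All mice carried Cdh5-CreERT2, a tamoxifen-dependent recombinase driven by an endothelial promoter, with the R26R-tdTomato reporter, and all were injured in the quadriceps with cardiotoxin, a venom toxin that kills muscle fibres. The CLL group (n = 3 mice) received clodronate liposomes, which are taken up by phagocytes and kill them, and the SHAM group (n = 3 mice) received PBS liposomes. Liposomes were given into a vein 1 day before and 2 days after the injury, and muscle was taken on day 5. The series text describes the ablation of circulating monocytes as partial, and neither age nor sex of the mice is stated.

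Classical monocytes are blood cells made in bone marrow that leave the marrow through the chemokine receptor Ccr2 and carry the surface protein Ly6c on their membrane. After muscle injury they enter the tissue, where they lose Ly6c and Ccr2 and turn into macrophages with genes for lipid handling, scavenging and antigen presentation. Clodronate liposomes in the blood are commonly used to remove them.

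Libraries held between 23873416 and 94841003 UMIs, and between 1543 and 22572 quality-passing barcodes. CLL replicate 2 was shallow for each barcode, with a median of 2427 UMIs, and so was SHAM replicate 1, with 3140, while the other 4 libraries had medians of 10883.5 to 15083. SHAM replicate 1 alone gave 22572 of the quality-passing barcodes. Of 59914 distinct barcode sequences deposited, 362 occurred in more than 1 library, and none of the 132 did. Scrublet scores a barcode by its likeness to simulated doublets. The share to be marked was preset, at 0.8% for each 1000 barcodes deposited. The marked share of 1.66% to 20.02% therefore followed the number of deposited barcodes of a library and is not a measured doublet rate. Marked barcodes were kept.

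The monocyte-marker barcodes were few and unevenly spread. CLL replicates 1, 2 and 3 gave 7, 2 and 19, and SHAM replicates 1, 2 and 3 gave 94, 9 and 1. SHAM replicate 1 therefore held 71.2% of the barcodes and 49.5% of their UMIs, so sums over all of them lean on that library. Their median depth was 6174 UMIs (range 1339 to 57986) with a median of 2144.5 genes.

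The rule removed most candidates through its upper limits. Among 19061 myeloid barcodes, 494 had at least 3 of the 5 markers. The macrophage limit removed 238 of these, the MHC class II limit a further 79, and Flt3 or Csf3r the last 45. In SHAM replicate 3 the limits took 48 candidates down to 1, of which 33 went at the macrophage limit. In CLL replicate 3, by comparison, 60 candidates became 19.

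**Figure D1:**
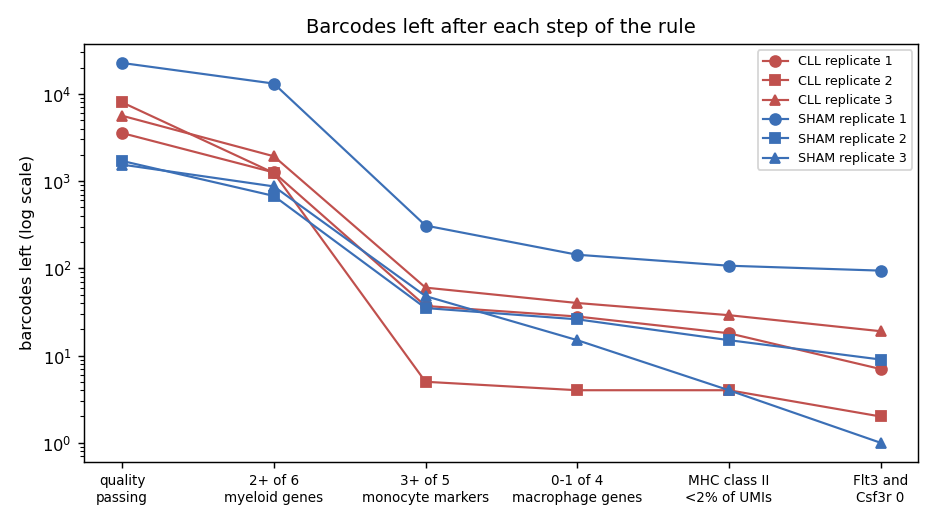
Number of barcodes left (y axis, log scale) after each successive step of the rule (x axis), with 1 line for each of the 6 libraries, CLL in red and SHAM in blue. SHAM replicate 1 stays above the others at every step and ends at 94, while SHAM replicate 3 falls from 48 to 1 over the last 3 steps.

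The marker number sat close to its threshold. Of the 132 barcodes, 111 had exactly 3 markers, 19 had 4 and 2 had all 5. Just outside it, 643 barcodes met every other condition with exactly 2 markers. These had a median fibroblast marker share of 3.37% of UMIs, against 1.66% with 3 markers and 0.837% with 4. Their median Lyz2 count was 4 UMIs, against 7 and 10.

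The 5 markers differ in what they are known for and in how they were captured. Since they chose the barcodes, their values are given as a description. Levels are given as CPM, the usual count scaled for depth, of the summed barcodes of a library.

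Plac8, which encodes a small cysteine-rich protein abundant in monocytes and in plasmacytoid dendritic cells, was detected in 124 of the 132 barcodes, at 721 CPM. It lies on chromosome 5 (100553725 to 100572245, minus strand, mm10). In replicate order its level was 631, 75.4 and 808 CPM in the CLL libraries and 633, 1898 and 18.9 CPM in the SHAM libraries. The groups overlapped, and the lowest SHAM value rested on 1 barcode with 1 UMI.

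Ccr2, the receptor for the monocyte-attracting chemokine Ccl2, was detected in 111 barcodes at 162 CPM, from chromosome 9 (124101950 to 124113557, plus strand). In 73 of those 111 it was seen as a single UMI. By library it was at 97.1, 18.9 and 116 CPM in CLL and at 212, 233 and 18.9 CPM in SHAM.

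Vcan, the matrix proteoglycan versican, was detected in 92 barcodes at 216 CPM, from chromosome 13 (89655312 to 89742509, minus strand). CLL libraries were at 146, 94.3 and 186 CPM, and SHAM libraries at 268, 11.1 and 435 CPM. The highest and the lowest libraries were thus both SHAM.

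Ly6c2, which encodes the Ly6c surface antigen, was detected in 70 barcodes at 289 CPM, from chromosome 15 (75108158 to 75111970, minus strand). It was at 233, 0 and 179 CPM in CLL and at 269, 1165 and 0 CPM in SHAM. The neighbouring Ly6c1 (chromosome 15, 75044018 to 75048830) gave UMIs in 25 of the barcodes. Annotated transcripts of both genes were identical at 97.6% of 822 aligned bases, and 32.6% of 50-base windows of Ly6c2 occur unchanged in Ly6c1, so how reads were split between them is uncertain.

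Chil3, a secreted chitinase-like protein of monocytes and neutrophils, was the rarest, in 22 barcodes at 94.4 CPM, from chromosome 3 (106147554 to 106167564, minus strand). CLL libraries were at 262, 18.9 and 38.7 CPM and SHAM libraries at 119, 22.2 and 0 CPM. Only 10 of the 22 rested on a single UMI, against 73 of 111 for Ccr2.

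The commonest combination was Ccr2 with Plac8 and Vcan, in 56 barcodes, of which 46 were from SHAM replicate 1. Ly6c2 with Ccr2 and Plac8 followed with 26, of which 7 were from SHAM replicate 2 (7 of its 9). The barcodes had a median of 8 marker UMIs, and 17 had no marker above 1 UMI.

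Transcripts of other cell types were present in most of the barcodes. The lists used here were 10 sets of marker genes for other cells, with thresholds for calling a barcode positive that were chosen after the values were seen. A set of 10 fibroblast markers, such as the collagen gene Col1a1, made up at least 2% of UMIs in 56 of the 132 (42.4%), of which 46 were from SHAM replicate 1, 7 from CLL replicate 3, 2 from CLL replicate 2 and 1 from SHAM replicate 3. None of the barcodes of CLL replicate 1 or SHAM replicate 2 reached it. Scrublet marks were on 33 of those 56, and on 45 of the 132 overall (34.1%), of which 39 were from SHAM replicate 1. These traits were common elsewhere too. Fibroblast markers reached 2% in 45.6% of quality-passing and 25.1% of myeloid barcodes, and 14.1% and 21.5% carried Scrublet marks. In SHAM replicate 1, fibroblast markers reached 2% in 48.9% of monocyte-marker and 25.5% of myeloid barcodes. Scrublet marks there were on 41.5% and 27.4%. The preset share was highest in that library, at 20.02% of deposited barcodes, so counts of marks cannot be compared between libraries.

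Vcan moved with the fibroblast markers. It was detected in 52 of those 56 barcodes, and the median fibroblast share was 2.41% where Vcan was detected against 0.374% where it was not. Fibroblasts are a known source of versican. When barcodes were thinned to 2000 UMIs each, Vcan was detected in 31.5% to 38.6% of fibroblast-type barcodes and Plac8 in 6.23% to 11.6%, library by library, whereas Ly6c2 reached at most 0.622%, Ccr2 1.11% and Chil3 0.0947%. Fibroblast-type barcodes were those with at least 5 of 6 fibroblast genes and at most 1 of the 6 myeloid genes, and at most 0.806% of them in any library had 3 markers before thinning. Among myeloid barcodes the same share was 0.404% to 5.53%. The part of mixed droplets or free RNA in the barcodes with fibroblast transcripts was not tested.

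Another set carried Siglech, a receptor that marks plasmacytoid dendritic cells, at 2 or more UMIs. It numbered 21, with 1, 0 and 8 in CLL and 7, 5 and 0 in SHAM. Plac8 was at 2255 CPM in these barcodes, and Ly6c2 was detected in all 21 at 975 CPM. They held 0 UMIs of Csf1r, the macrophage growth factor receptor, and Lyz2 (lysozyme) was at 129 CPM. Of the 24 barcodes with 5 or more Ly6c2 UMIs, 15 carried at least 1 Siglech UMI.

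Smaller sets had markers of other leukocytes. Neutrophil markers made up 5% or more of UMIs in 6 barcodes, 1 from CLL replicate 1 and 5 from SHAM replicate 1, with a highest share of 40.2%. All 6 held Chil3, at 1790 CPM, although the rule had removed barcodes with Csf3r. Bone marrow precursor markers, among them the granule enzyme gene Mpo, reached 1% in 3 barcodes of SHAM replicate 1, and 6 barcodes had 3 or more T or NK cell genes.

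**Figure D2:**
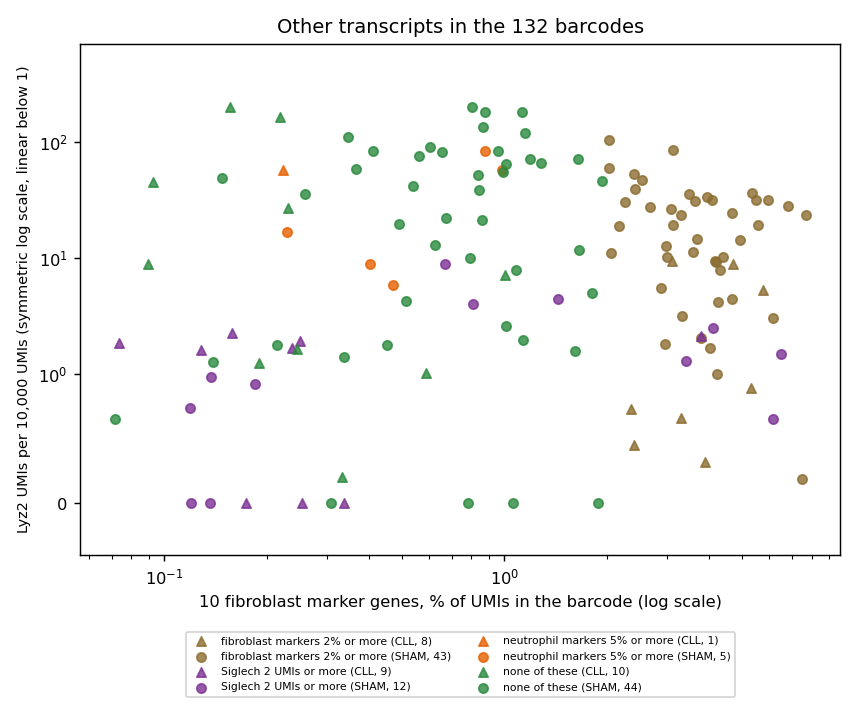
Each of the 132 barcodes by the share of its UMIs in 10 fibroblast marker genes (x axis, percent, log scale) and by its Lyz2 UMIs per 10000 UMIs (y axis, symmetric log scale), with colours for the marks described in the text and triangles for CLL, circles for SHAM. Barcodes with Siglech lie low on Lyz2, and those with 2% or more fibroblast markers (brown, or purple where Siglech was also present) lie to the right.

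Few barcodes were free of such marks. Besides the marks above, endothelial markers (15 barcodes), mural markers (5) and muscle markers (5) were counted. The endothelial, mural and muscle cutoffs lay below 1% of UMIs. Of the 132, 38 had none of the marks for other cell types, and 25 of these also had less than 1% of UMIs in 20 macrophage maturation genes. No share for other myeloid barcodes stands beside these counts. Of the 25, 13 also had 10 or more Lyz2 UMIs: 1 from CLL replicate 1, 1 from CLL replicate 3, 10 from SHAM replicate 1 and 1 from SHAM replicate 2. The median Lyz2 count was 7.5 UMIs in the 132 and 23 in all myeloid barcodes, but 9 in those of CLL replicate 2. It was 39 in macrophage-type barcodes (at least 2 of the 4 macrophage genes). In MHC class II high barcodes (2% of UMIs or more) it was 10, and 4 in CLL replicates 1 and 3. A count under 10 was thus common among other myeloid barcodes too. Csf1r was at 0 UMIs in 84 of the 132, Lyz2 at no more than 1 UMI in 38, and 61 had only 2 of the 6 myeloid genes, the fewest allowed. A cutoff at the 95th percentile of macrophage-type barcodes of the same library leaves 5% of those above it. Of the 132, 15.9% lay above it for fibroblast, 9.09% for neutrophil and 6.82% for muscle markers. Over the 10 lists this share ran from 3.79% (red cell) to 31.8% (dendritic). The barcodes thus carried markers of several cell types, and how far this sets them apart from other myeloid barcodes was not tested.

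Both barcodes with all 5 markers were among those 13. The one from CLL replicate 1 (3858 UMIs) held 1 UMI of Ly6c2, 3 of Ccr2, 9 of Plac8, 19 of Chil3 and 2 of Vcan, with 78 of Lyz2. The one from CLL replicate 3 (5934 UMIs) held 7, 7, 42, 10 and 1, with 98 of Lyz2. Their fibroblast marker shares were 0.156% and 0.219%, and neither had a Siglech UMI or a doublet mark.

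**Figure D3:**
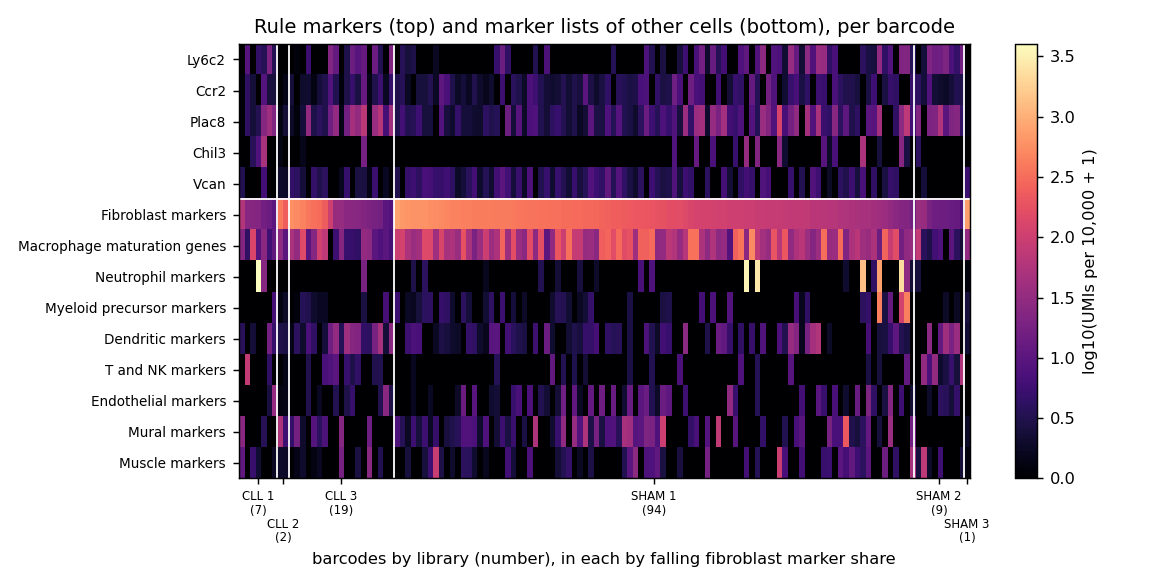
Levels of the 5 markers (top rows) and of 9 marker lists (bottom rows) in each of the 132 barcodes (columns, grouped by library and sorted within it by fibroblast share), as log10 of UMIs per 10000 plus 1. The fibroblast row is bright across the left of the SHAM replicate 1 block, and the neutrophil row is bright in a few single columns.

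The CLL and SHAM libraries were compared by the share of their barcodes that met the rule, which, given the marks above, is not a share of monocytes. Of quality-passing barcodes, the share in replicate order was 0.197%, 0.0251% and 0.339% for CLL and 0.416%, 0.529% and 0.0648% for SHAM. SHAM replicate 3 lay below 2 of the CLL libraries, so the groups overlapped. The means were 0.187% ± 0.157 (SD, n = 3) in CLL and 0.337% ± 0.242 (SD, n = 3) in SHAM, a difference of −0.150 percentage points that did not exceed the spread between mice (two-sided exact permutation p = 0.4, adjusted 0.8 over the 2 shares). With 3 mice against 3 no p below 0.10 can be reached.

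Of myeloid barcodes, the share was 0.558%, 0.162% and 0.988% in CLL and 0.717%, 1.33% and 0.115% in SHAM. Means were 0.569% ± 0.413 and 0.722% ± 0.609 (SD, n = 3 each), and they did not differ beyond the spread (exact permutation p = 0.8, adjusted 0.8). Counting error alone was wide, with an exact binomial 95% interval of 0.00304% to 0.0906% for the 2 barcodes of CLL replicate 2 and of 0.00164% to 0.361% for the 1 barcode of SHAM replicate 3, as shares of quality-passing barcodes. The direction of this second share turned when CLL replicate 2 (+0.0509 percentage points) or SHAM replicate 2 (+0.153) was left out.

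Without the upper limits on macrophage, MHC class II, Flt3 and Csf3r transcripts, an alternative added after the counts were seen, the 494 barcodes with 3 or more markers separated the groups. Their share of quality-passing barcodes was 1.04%, 0.0627% and 1.07% in CLL and 1.37%, 2.06% and 3.11% in SHAM. All 3 CLL libraries lay below all 3 SHAM libraries, with means of 0.725% ± 0.574 and 2.18% ± 0.877 (SD, n = 3 each) and an exact permutation p of 0.10, the smallest possible. As shares of myeloid barcodes they overlapped, at 2.16% ± 1.52 and 4.36% ± 1.74 (exact permutation p = 0.3). CLL replicate 2, with the lowest share, and SHAM replicate 1, with the lowest of SHAM, were also the shallowest libraries. With each barcode thinned to 2000 UMIs, 3 or more markers were found in 0.268%, 0% and 0.176% of the CLL and 0.378%, 0.708% and 0.263% of the SHAM barcodes kept, so the groups overlapped (exact permutation p = 0.2). The 0 of CLL replicate 2 allows a share of up to 0.0635%. Thinned likewise, the full rule found 5, 0 and 1 barcodes in CLL and 22, 4 and 0 in SHAM.

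**Figure D4:**
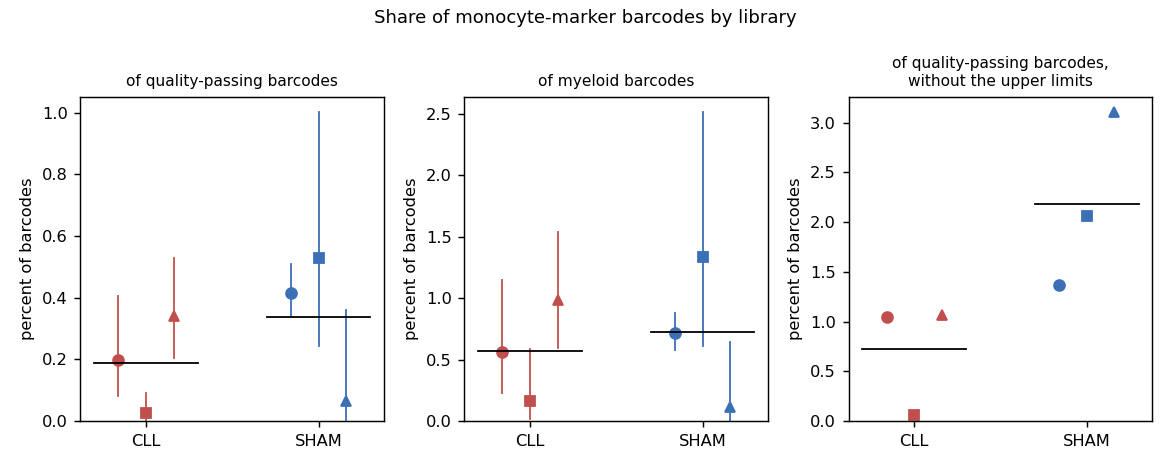
Percent of barcodes in each library that met the rule, out of quality-passing barcodes (left), out of myeloid barcodes (middle), and out of quality-passing barcodes with the upper limits dropped (right). Points are single libraries with exact binomial 95% intervals in the first 2 panels, black lines are group means, and the CLL and SHAM points overlap in the left and middle panels and not in the right.

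Gene expression of the monocyte-marker barcodes was compared over libraries with at least 5 of them, CLL replicates 1 and 3 against SHAM replicates 1 and 2. No gene of the 2930 tested passed (0%, edgeR quasi-likelihood test with Benjamini-Hochberg adjustment at 0.05), while 30 had an unadjusted p under 0.05, and DESeq2 called 0 with 21. In simulated counts at this size, 53.0% of 200 genes changed 4-fold were recovered among 3033 tested, with 7 false calls. The simulation used a preset spread between libraries and not that of these barcodes, so recovery in the real sums is not known. The 5 markers and the other rule genes were left out of the fit.

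Single genes from the lists are given for their values, all with an edgeR adjusted p of 1.00, here as CPM scaled by TMM. Nr4a1, an immediate early transcription factor needed by non-classical monocytes, was at 56.6 and 47.7 CPM in CLL replicates 1 and 3 and at 158 and 318 CPM in SHAM replicates 1 and 2. Cd36, a scavenger receptor, was at 22.6 and 3.97 against 81.3 and 96.7 CPM. For both, the CLL values lay below the SHAM values, with log2 differences of −2.16 ± 0.58 and −3.06 ± 1.09 (SE).

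Hp, the haptoglobin gene of monocytes and neutrophils, was at 158 and 222 CPM in CLL and at 106 and 27.6 CPM in SHAM. S100a6, a calcium-binding protein, was at 3541 and 2515 against 2398 and 1257 CPM. Cd44, an adhesion receptor for hyaluronan, was at 317 and 254 against 413 and 773 CPM, and the interferon receptor subunit Ifnar1 at 33.9 and 27.8 against 65.0 and 193 CPM. These too did not overlap between the groups and did not pass the test, and 802 of all 2930 genes tested (27.4%) did not overlap.

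The lists followed the same pattern of no calls. Of 20 classical monocyte genes outside the rule, 12 were tested, with a median log2 difference of 0.61 beside −0.02 over all genes tested. For 8 of 17 adhesion genes the median was −0.53, for 8 of 23 chemokine and growth factor receptors −0.65, and for 12 of 18 chemokine ligands 0.33. Neutrophil markers, 6 of 12 tested, had a median of 1.89, macrophage maturation genes (9 of 20) −0.76 and MHC class I genes (11 of 17) −1.06. The neutrophil gene S100a9 was uneven within groups, at 17140 and 0 CPM in CLL replicates 1 and 3. In SHAM replicates 1 and 2 it was at 3879 and 0 CPM. Only 1 CLL barcode, from CLL replicate 1, had neutrophil markers at 5% or more. In a library with 7 barcodes, a single one can weigh heavily on such medians. No member of these lists passed.

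Left-out libraries changed the count. Without SHAM replicate 1 the fit called 160 genes, and without SHAM replicate 2 it called 17, in each case with a lone SHAM library assumed to vary like the CLL pair. Monocyte-marker barcodes of these 2 libraries differed in the marks given above, with fibroblast markers at 2% or more in 48.9% of those of SHAM replicate 1 and in 0 of 9 in SHAM replicate 2.

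The wider set of myeloid barcodes with 3 or more markers was also tested, over the 5 libraries with at least 20. None of 8016 genes passed in edgeR (0%; 658 with unadjusted p under 0.05), while DESeq2 called 26.

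Whether the CLL difference in monocyte-marker barcodes departed from that in other myeloid classes was tested with a class-by-treatment term within libraries. Against macrophage-type barcodes (at least 2 of the 4 macrophage genes and fewer than 3 of the 5 markers), 4 of 10721 genes passed (0.0373%, edgeR adjusted p = 0.0153). They were the endothelial genes Emcn, Cdh5 and Pecam1 and the neutrophil granule gene Ngp. In CLL replicate 1, a single barcode held all 210 UMIs of Ngp. Against MHC class II high barcodes, 0 of 7066 passed (0%; 299 with unadjusted p under 0.05, and 1 in DESeq2).

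Levels beside the other myeloid classes can be read only in SHAM replicate 1, the 1 library with at least 20 monocyte-marker barcodes. With 1 library there is no test, the intervals cover counting error only, and the classes were cut on some of the same transcripts. Of 20 classical monocyte genes outside the rule, 15 were higher than in macrophage-type barcodes, beside 43.4% of all genes with a UMI in either class and 66% of the 2930 genes tested above. Against MHC class II high barcodes 10 were higher, beside 60.5% and 70%.

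Ifitm6, an interferon-induced membrane protein of classical monocytes, was at 59.5 CPM (exact Poisson 95% interval 41.2 to 83.1), against 3.39 in macrophage-type and 23.3 in MHC class II high barcodes. Hp was at 90.96 CPM against 7.76 and 1.37. In this library 5 barcodes had neutrophil markers at 5% or more, and their part in the Hp level was not tested.

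Other genes of the list did not all go one way. Ms4a4c, a membrane protein of classical monocytes, was at 56.0 CPM against 32.9 in macrophage-type and 175 in MHC class II high barcodes. S100a4 was at 259 CPM against 179 and 477, and Itgam, the integrin CD11b, at 42.0 against 55.5 and 57.3. Fn1, the fibronectin gene, was at 2220 CPM against 1286 and 887, in a library where fibroblast markers were prominent in the same barcodes.

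Of 20 macrophage maturation genes, 2 were higher and 18 lower than in macrophage-type barcodes, beside 43.4% of all genes with a UMI in either class that were higher. Against MHC class II high barcodes 4 were higher and 16 lower, beside 60.5% higher. The limit on macrophage genes in the rule partly set the first contrast. C1qa, a complement component, was at 479 CPM against 2737 in macrophage-type and 2493 in MHC class II high barcodes, and Apoe, the lipid carrier, at 4375 against 23011 and 18996 CPM. Il1b, the inflammatory cytokine, was at 152 CPM against 162 and 805.

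Across all 19061 myeloid barcodes, the markers could be tested over all 6 libraries without choosing barcodes by them, in a comparison added after the small numbers were seen. Ccr2 was the 1 of the 5 that differed (TMM-scaled CPM). It was at 33.6, 24.2 and 30.2 CPM in CLL and 63.8, 116 and 59.3 CPM in SHAM, with no overlap and a log2 difference of −1.43 ± 0.26 (SE, edgeR adjusted p = 0.0125), in a fit that called 10.9% of 14384 genes. In sums over many cells such as these, fewer cells of a type and less RNA in each cell cannot be told apart. The call was lost while the log2 difference stayed negative in 4 alternatives. It was −1.28 over barcodes with at least 4 of the 6 myeloid genes (edgeR adjusted p = 0.0615) and −1.04 over those with less than 2% fibroblast markers (0.0784). Without CLL replicate 3 it was −1.45 (0.0523), and without both CLL replicate 2 and SHAM replicate 3 it was −1.48 (0.0531). In fibroblast-type barcodes Ccr2 was at 0.276, 0.172 and 0.195 CPM in CLL and 5.59, 1.72 and 1.40 CPM in SHAM.

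The other 4 did not pass. Ly6c2 was at 25.9, 1.17 and 10.7 CPM in CLL and 12.5, 39.8 and 14.9 CPM in SHAM (log2 −0.74 ± 0.75, adjusted p = 0.575 in edgeR). Plac8 (log2 −0.14 ± 0.56), Chil3 (−0.64 ± 0.41) and Vcan (0.50 ± 0.24) also overlapped between the groups, with edgeR adjusted p of 0.902, 0.360 and 0.235. The sign for Plac8 was not stable and turned positive in 4 alternatives.

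Ly6c1, near-identical to Ly6c2 and also an endothelial gene, was lower in CLL by 3.15 on the log2 scale (edgeR adjusted p = 0.00165). Endothelial markers moved with it, with 8 of 8 lower in CLL myeloid barcodes at a median log2 difference of −3.63, beside 6.22% of all genes lower. Their part in the values of Ly6c1 and Ly6c2 was not tested.

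**Figure D5:**
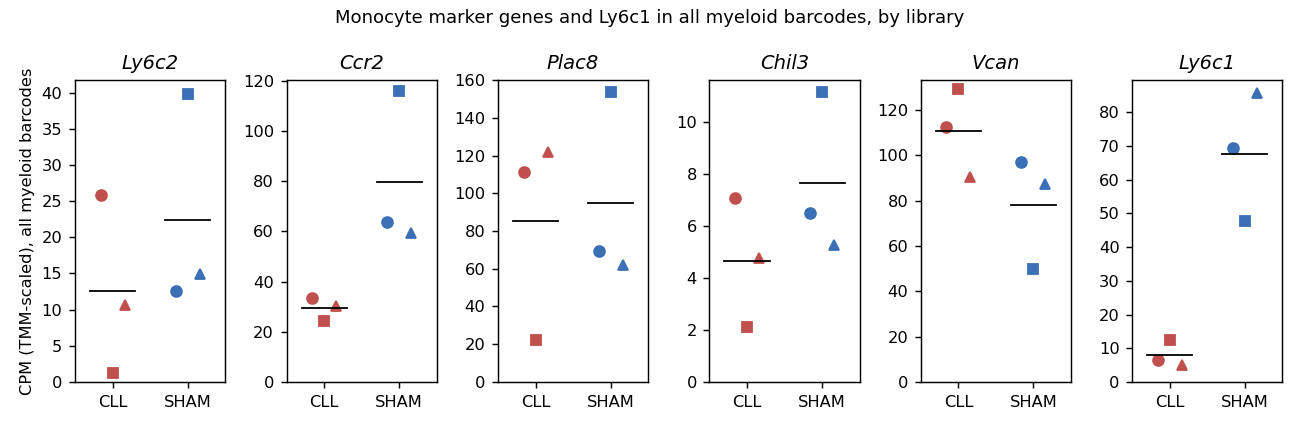
TMM-scaled CPM of the 5 marker genes and of Ly6c1, summed over all myeloid barcodes of each library (points; black lines are group means), each panel with its own axis from 0. Ccr2 and Ly6c1 are the panels in which the 3 CLL libraries all lie below the 3 SHAM libraries.

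Other monocyte genes in the same fit went both ways. Of 20 classical monocyte genes outside the rule, 19 were tested, 3 rose (Hp, Thbs1 and S100a4) and 4 fell (Ms4a4c, Ifitm3, Cd93 and Sirpb1c), beside 4.71% of all genes higher and 6.22% lower. Genes outside the monocyte lists shifted as well. Of 38 interferon response genes tested, 32 fell and 0 rose, with a median log2 difference of −1.23. Whether the falls of single monocyte genes belong to that shift was not tested. Ms4a4c was at 15.3, 8.51 and 23.5 CPM in CLL and 44.2, 72.0 and 42.4 in SHAM (log2 −1.70 ± 0.34, edgeR adjusted p = 0.0173). S100a4 was at 636, 373 and 480 CPM against 180, 278 and 266 (log2 1.04 ± 0.24, edgeR adjusted p = 0.0275). The rise of Hp was uneven, with 73.4, 1231 and 150 CPM in CLL, and CLL replicate 2 set most of its mean.

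The classical monocyte genes called in this fit also differed in fibroblast-type barcodes of the same libraries, where no test was run. There Hp was at 119, 921 and 216 CPM in CLL and 3.13, 4.48 and 24.9 CPM in SHAM. Thbs1 was at 612, 806 and 552 against 288, 159 and 117 CPM, and S100a4 at 277, 222 and 235 against 130, 149 and 149 CPM. Cd93, also an endothelial gene, was at 1.05, 1.95 and 0.902 against 121, 35.2 and 79.4 CPM. Ifitm3 was at 873, 784 and 908 against 1000, 1177 and 1178 CPM. Ms4a4c was at 0.0553, 0.115 and 0.171 against 4.64, 1.26 and 1.09 CPM. Sirpb1c was at 0, 0 and 0 against 0.726, 0.115 and 0.312 CPM, so these last values were low. The CLL and SHAM values of all these genes thus did not overlap outside the myeloid barcodes either. The part of other cells' RNA in the myeloid values was not tested.

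Of 14 non-classical monocyte genes, 13 were tested and 5 fell, with none higher, beside 6.22% of all genes lower and 4.71% higher. Ace, the angiotensin-converting enzyme, was at 7.70, 7.22 and 4.71 CPM in CLL and 16.8, 20.1 and 18.5 CPM in SHAM, and Adgre4, an adhesion receptor of patrolling monocytes, at 1.75, 1.86 and 1.06 against 4.84, 9.52 and 4.58 CPM (edgeR adjusted p = 0.00387 and 0.0127). Ace, also an endothelial gene, was at 18.7, 24.8 and 13.1 CPM in CLL and 47.3, 73.2 and 50.8 CPM in SHAM in fibroblast-type barcodes. Mural markers fell with the endothelial ones in the myeloid sums, 4 of 7 at a median log2 difference of −3.54 over the 7, and their part in these values was not tested. Among 22 receptor genes tested, 5 fell, including the chemokine receptor Cxcr4, beside the same 6.22% of all genes.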

How the data were processed

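Single-cell 3′ RNA libraries of 6 mice were used, 3 in each group. The authors deposited UMI counts for each gene and barcode, made with Cell Ranger 6.1.2 against mm10, per the submitters' processing notes. The barcode rule was applied to these counts, and barcodes of each library were summed. The members and gene lists were chosen with earlier results of these data known. Sums were tested with edgeR 4.0.16 (TMM, filterByExpr, quasi-likelihood, Benjamini-Hochberg 0.05) and DESeq2 1.42.0 in R 4.3.3. Shares were tested with exact permutation tests. A minimum of 20 barcodes in each library had been planned for gene fits, but only 1 library had them, so 5 was used (4 libraries), which was chosen after the counts were seen. Same-numbered libraries correlated at −0.00494, −0.0620 and 0.0372 in their deviations, and differently numbered ones at −0.0906 to 0.0731. No pairing by number was seen, but with 3 libraries in each group this check cannot exclude one. Named genes were those of the lists with the smallest p and a fixed set; the planned rule for the largest changes named none, because no gene passed. The tests were checked on simulated data. Of 497 list genes, 6 were not found. Intervals cover counting error only.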

Additional observations from a re-analysis of the deposited data

Results flagged for a closer look

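In all, 4 genes passed a test that the CLL difference in monocyte-marker barcodes departs from that in macrophage-type barcodes of the same libraries. The log2 departures were 6.16 for Emcn, 4.71 for Cdh5, 4.595 for Pecam1 and 6.56 for Ngp (edgeR adjusted p = 0.0153 for each). In macrophage-type barcodes of CLL replicates 1 and 3, Cdh5 was at 1.78 and 3.94 CPM, and of SHAM replicates 1 and 2 at 136 and 93.7 CPM. In monocyte-marker barcodes it was at 87.4 and 35.2 against 68.2 and 111 CPM. In CLL replicate 1, the most UMIs in any 1 barcode were 8 of 9 for Cdh5, 6 of 6 for Pecam1 and 2 of 2 for Emcn. These were counted gene by gene, and whether the genes shared a barcode was not tested. In CLL replicate 3 a single barcode held all 13 Emcn UMIs. Ngp had 210 UMIs in 1 barcode of CLL replicate 1 and 296 in 5 barcodes of SHAM replicate 1.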

How the results depend on the processing

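Shares kept their direction in most settings. With at least 4 of 5 markers the differences became +0.0170 (quality-passing) and +0.0751 percentage points (myeloid), and with at least 2 markers +1.06 for the myeloid share. Leaving out each library gave −0.286 to −0.0535 for the quality-passing share and −0.456 to 0.153 for the myeloid share. In the monocyte-marker barcodes, the gene count rose from 0 to 11 without a filter on low counts, and to 0 to 160 when libraries were left out. In barcodes with 3 or more markers it was 26 with DESeq2, 3 with all 6 libraries, and 0 to 12 with libraries left out. Over all myeloid barcodes, 1572 became 337 with at least 4 of 6 myeloid genes, 410 with fibroblast markers under 2%, 459 without CLL replicate 2 and SHAM replicate 3, and 467 to 1352 with single libraries left out. The macrophage-type interaction went from 4 to 8 without a filter, and to 5 to 169 with libraries left out. The MHC class II high interaction went from 0 to 23 without a filter, to 1 with DESeq2, and to 3 to 115 with libraries left out. Plac8 over all myeloid barcodes turned positive with fibroblast markers under 2% (log2 0.27), without CLL replicate 2 or SHAM replicate 2 (0.31 and 0.38), and without CLL replicate 2 and SHAM replicate 3 together (0.0748), with −0.49 to 0.38 when single libraries were left out. The cause was not tested. With the replicate number as a replicate block, 1070 genes were called over all myeloid barcodes and 0 in the other 2 gene comparisons over 6 libraries. Paired by number, both shares had an exact sign-flip p of 0.75. A block could not be fitted over the 4 libraries, and neither could a fit with at least 4 markers. The number of barcodes limits the results on monocyte-marker barcodes.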
